A study of Mus musculus with 3 samples.

Results

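The 9 genes H19, Meg3, Dlk1, Peg3, Plagl1, Grb10, Ndn, Mest and Nnat are imprinted in the mouse, which means that mainly 1 parental copy of each is transcribed. They were taken by gene symbol from the 23284 symbols listed in each of 3 RNA-seq libraries of embryonic digit cells, and all 9 were listed. Lgr5+ cells at E14.5 (days of embryonic development) were the GFP-positive cells of forelimb digits from Lgr5-eGFPCreERT2/+ embryos, and the labels name them interzone, the band of cells where a joint will form. Lgr5- cells at E14.5 were the GFP-negative cells of forelimb digits of that genotype, named non-interzone. Sox9+ cells at E13.5 were GFP-positive digit cells of Sox9-eGFP/+ embryos, and the labels do not name the limb. The strain is C57/bl6 throughout. Cells were chosen by reporter fluorescence and not by position, so Lgr5- cells may include interzone cells without signal, and Sox9+ cells are those in which the Sox9 reporter was on. There was 1 library per population, and how many embryos were pooled is not given in the sources used here.

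Imprinted genes keep a parental memory as DNA methylation at control regions, and many of those in this set tune growth before birth. H19, Meg3 and Grb10 are expressed mainly from the maternal copy, Grb10 except in neurons, and Dlk1, Peg3, Plagl1, Ndn, Mest and Nnat from the paternal copy. Several of them are known to be high in the embryo and to be turned down after birth in many organs of the mouse. FPKM does not separate the parental copies, so imprinting itself was not read here. In a library of sorted cells, fewer cells of a type and less RNA per cell cannot be told apart.

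Values are FPKM, fragments scaled to transcript length and to the mapped fragments of a library, and folds were taken between values of FPKM + 1. Genes with 1 FPKM or more in the higher library of a pair are called measured, and a 2-fold difference is the threshold used. Because each population has 1 library, there is no replicate error, no test and no p-value, and every difference below is between libraries. The Lgr5+ to Sox9+ and Lgr5- to Sox9+ comparisons differ also in day, reporter line, sort and possibly limb, which cannot be told apart, and the 3 comparisons share libraries.

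The sorting genes went with the Lgr5 labels. Lgr5 stood at 26.8 FPKM in Lgr5+ cells, 1.36 FPKM in Lgr5- cells and 3.48 FPKM in Sox9+ cells, and 6 interzone markers summed to 890.5, 144.4 and 175.7 FPKM in that order. The 6 cartilage markers summed to 2961, 1860 and 6934 FPKM, mostly from Col2a1 (2253, 1401 and 5304 FPKM). Between the Lgr5 libraries they split, with 1, Sox9, at least 2-fold higher in Lgr5+ cells and 2, Matn1 and Comp, at least 2-fold lower. Sox9 itself was at 332, 147.1 and 254.7 FPKM, so Sox9 RNA was not highest in the cells sorted by its reporter. Between 11924 and 12002 genes reached 1 FPKM in a library. The ribosomal RNA precursor Rn45s took 1.86%, 6.13% and 6.43% of all FPKM, and haemoglobin genes 0.0362%, 1.01% and 0.0295%. Depth is unknown, since the files hold no counts.

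Summed over the 9 genes, the level was 2661 FPKM in Lgr5+ cells, 1948 FPKM in Lgr5- cells and 3481 FPKM in Sox9+ cells. That was 0.498%, 0.356% and 0.586% of all FPKM in the same order. The sum without H19 was 1390, 1384 and 2512 FPKM, so outside H19 the summed level of the Lgr5 libraries was nearly equal and that of the Sox9+ library higher. That near equality joins opposite directions. Nnat was at 341.9 FPKM in Lgr5+ and 497.4 FPKM in Lgr5- cells, and the rest were each higher in Lgr5+ cells. Of the 9 genes, 8 were highest in Sox9+ cells and 8 were lowest in Lgr5- cells. The order Sox9+ above Lgr5+ above Lgr5- held for 7 genes, H19 was highest in Lgr5+ cells and Nnat lowest there. Over all 12754 genes measured in any library, 20.2% had that order of 3, 34.3% were highest in Sox9+ cells and 36.1% lowest in Lgr5- cells. These counts depend on the scaling: under 7 others, 6 to 8 of the 9 were highest in Sox9+ cells and 7 or 8 lowest in Lgr5- cells. Nnat turned to higher in Lgr5- than in Sox9+ cells in 6 of the 7, and Ndn to higher in Lgr5+ than in Sox9+ cells in 2.

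**Figure D1:**
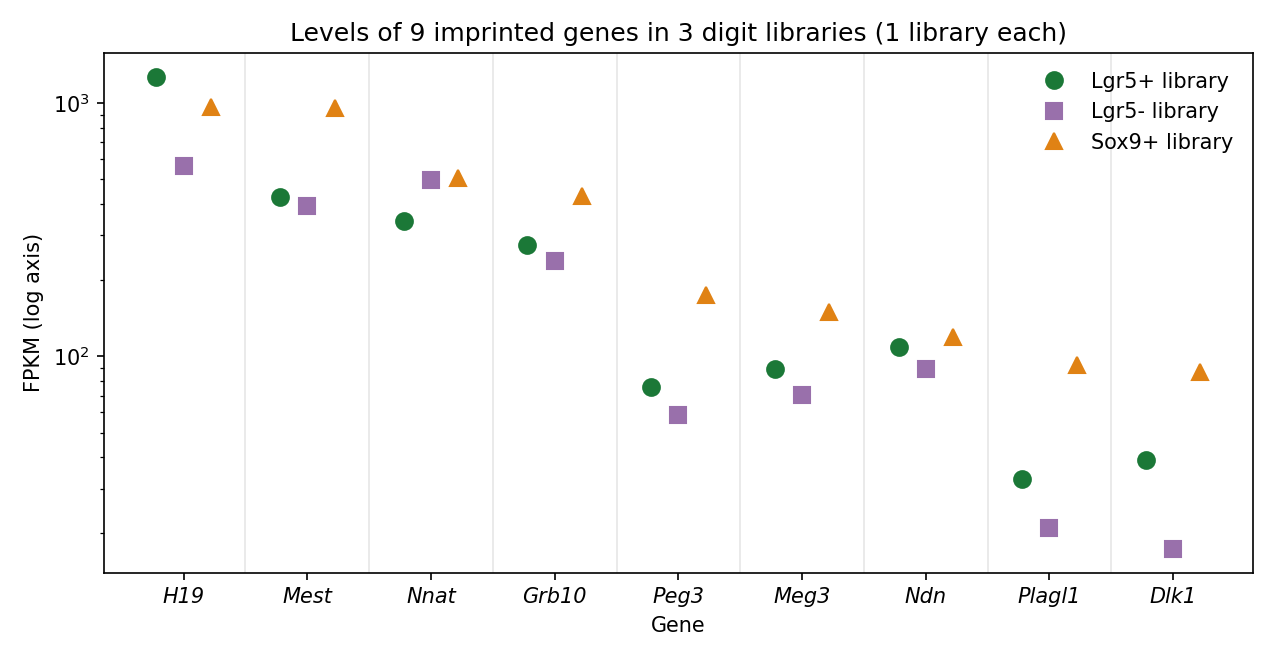
Level of each imprinted gene in FPKM (log axis) in the Lgr5+ library (circles), the Lgr5- library (squares) and the Sox9+ library (triangles), with 1 library per point and no error. As deposited, triangles are the top point for every gene but H19 and squares the lowest for every gene but Nnat, and the top place of Nnat and Ndn changes under other scalings.

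Dlk1, Plagl1, Peg3 and Mest were at least 2-fold lower in both Lgr5 libraries than in Sox9+ cells. A level lower by that much was seen for 3.96% of measured genes in Lgr5+ cells and for 4.94% in Lgr5- cells, each pair taken alone. The 2 pairs share the Sox9+ library, and the share of all genes lower in both was not computed. The Dlk1 difference of Lgr5+ cells dropped just under 2-fold in 2 of 7 other scalings. Dlk1 encodes a transmembrane protein with EGF-like repeats, related to Notch ligands, that holds back fat cell differentiation. It stood at 39.1 FPKM in Lgr5+ cells, 17.3 FPKM in Lgr5- cells and 86.8 FPKM in Sox9+ cells. All 3 levels of Dlk1 thus lay at least 2-fold apart, with Lgr5+ cells in between. Plagl1, a zinc finger transcription factor that acts on other imprinted genes, stood at 32.9 FPKM in Lgr5+ cells, 21 FPKM in Lgr5- cells and 92.2 FPKM in Sox9+ cells. The Lgr5 libraries were closer to each other than either was to Sox9+ cells. Peg3, a large zinc finger protein needed for normal growth and maternal behaviour in mice, was at 75.4, 58.4 and 175.3 FPKM in the same order. Mest, an alpha/beta hydrolase fold protein whose loss slows embryonic growth in mice, was at 426.3, 392.4 and 954.7 FPKM. For Peg3 and Mest the Lgr5+ and Lgr5- libraries lay close together and the Sox9+ library stood alone.

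The start regions of these genes are shown because these genes were lower together. Methylation of CG dinucleotides in imprinted control regions sets which copy is used. Whether these windows lie in such control regions was not examined, so their CG counts do not report on those regions. The sequences are from RefSeq (GRCm38.p6), 250 bases before to 50 bases after the annotated start, read 5′ to 3′ on the gene's strand. Capitals mark each CG and, in Peg3, also the letters GGGGCCCC, a site known to be bound by PLAGL1. The windows are Dlk1 at chr12:109452573-109452872 on the plus strand, Plagl1 at chr10:13090582-13090881 on the plus strand, Peg3 at chr7:6730370-6730669 on the minus strand and the second of 3 Mest windows at chr6:30737800-30738099 on the plus strand.
Dlk1: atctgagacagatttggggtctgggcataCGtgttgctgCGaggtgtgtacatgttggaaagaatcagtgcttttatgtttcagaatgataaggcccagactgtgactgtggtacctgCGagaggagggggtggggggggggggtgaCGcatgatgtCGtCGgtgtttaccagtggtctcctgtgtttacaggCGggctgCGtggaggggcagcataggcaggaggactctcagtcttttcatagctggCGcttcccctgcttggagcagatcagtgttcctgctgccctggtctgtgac
Plagl1: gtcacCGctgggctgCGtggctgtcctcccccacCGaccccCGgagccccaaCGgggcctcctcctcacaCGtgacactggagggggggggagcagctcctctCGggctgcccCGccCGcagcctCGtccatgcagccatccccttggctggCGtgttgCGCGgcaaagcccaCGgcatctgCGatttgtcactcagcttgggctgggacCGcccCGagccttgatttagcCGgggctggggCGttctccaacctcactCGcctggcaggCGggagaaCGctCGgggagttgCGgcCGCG
Peg3: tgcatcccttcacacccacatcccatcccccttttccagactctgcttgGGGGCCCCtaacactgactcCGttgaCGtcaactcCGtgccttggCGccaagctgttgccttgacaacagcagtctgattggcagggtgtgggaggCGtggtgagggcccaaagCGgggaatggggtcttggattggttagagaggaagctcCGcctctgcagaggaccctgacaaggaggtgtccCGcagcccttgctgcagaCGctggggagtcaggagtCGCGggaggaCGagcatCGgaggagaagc
Mest: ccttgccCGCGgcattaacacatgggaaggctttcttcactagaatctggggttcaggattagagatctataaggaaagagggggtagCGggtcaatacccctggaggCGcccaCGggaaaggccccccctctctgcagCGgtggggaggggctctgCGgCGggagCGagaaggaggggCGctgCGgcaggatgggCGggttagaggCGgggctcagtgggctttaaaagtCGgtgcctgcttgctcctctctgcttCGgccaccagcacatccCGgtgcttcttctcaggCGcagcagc
These windows hold 9 CG in Dlk1, 26 in Plagl1, 13 in Peg3 and 17 in Mest, and the median of 32851 RefSeq windows of this length was 7. The table gave 12 windows for 8 of the 9 genes, and 11 of the 12 were above that median. Grb10 had the most, with 45 CG in 1 of its 2 windows, and the second Meg3 window the fewest, with 1. GGGGCCCC, which reads the same on both strands, was found in 1 of the 12 windows, that of Peg3, and in 1.08% of all windows. The TATA box letters TATAAA, searched on both strands, were in 1 of the 12, the first Meg3 window, and in 13.6% of all windows. The YY1 letters GCCATNTT, searched on both strands, were in none of the 12 and in 6.05% of all. A match describes letters in a window and is not a measured binding site, and methylation was not measured.

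Between the Lgr5+ and Lgr5- libraries, 2 of the 9 genes were higher in Lgr5+ cells by 2-fold or more and 0 lower. Of 12438 measured genes, 3.64% were higher by that much and 1.89% lower, 5.53% in all. H19, a long non-coding RNA that acts against growth, stood at 1272 FPKM in Lgr5+ cells, 563.9 FPKM in Lgr5- cells and 968.4 FPKM in Sox9+ cells. Its rank among all listed genes was 42 in Lgr5+ cells, 137 in Lgr5- cells and 85 in Sox9+ cells. H19 was 2.25-fold and Dlk1 2.18-fold higher in Lgr5+ than in Lgr5- cells, and 97.4% and 97.2% of measured genes had a lower ratio. The Dlk1 call ended with quantile normalization (just under 2-fold) and with a pseudocount of 5 FPKM (log2 ratio 0.98). Plagl1 was 1.54-fold, Peg3 1.28-fold, Meg3 1.26-fold, Ndn 1.22-fold, Grb10 1.16-fold and Mest 1.09-fold higher, all within 2-fold. Mest turned to slightly lower with quantile normalization, at a log2 ratio of -0.03. Nnat, which encodes a small proteolipid of the endoplasmic reticulum first known from developing brain, ran the other way at 341.9 FPKM in Lgr5+ cells, 497.4 FPKM in Lgr5- cells and 507.1 FPKM in Sox9+ cells. It was 1.45-fold lower in Lgr5+ than in Lgr5- cells, and 6.87% of measured genes had a lower ratio. The median log2 ratio was 0.34 over the 9 genes and 0.08 over all measured genes.

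Markers of other cell types differed between these 2 libraries as well. Muscle, in which H19 and Dlk1 are known to be high in the embryo, had 14 markers summing to 129.9 FPKM in Lgr5+ cells, 36.4 FPKM in Lgr5- cells and 35.9 FPKM in Sox9+ cells, and 11 of the 12 measured reached 2-fold, all higher in Lgr5+ than in Lgr5- cells. No muscle marker was at 0 in the Lgr5+ or Lgr5- library and 1, Pax7, was at 0 in Sox9+ cells. The 10 epidermis markers summed to 68.8, 20.9 and 39.5 FPKM, with none at 0. The 8 macrophage markers summed to 77.7, 31 and 10.3 FPKM, with Aif1 at 0 in Sox9+ cells. The 9 red blood cell markers summed to 157, 4011 and 149.2 FPKM. The 9 neuron and Schwann cell markers summed to 11.8, 23.3 and 24.3 FPKM, the order of the Nnat levels, with Snap25 at 0 in Lgr5+ cells and at 0.11 and 0.12 FPKM in the others. The 6 fat precursor markers summed to 104.5, 86.2 and 60.2 FPKM, mostly from Pdgfra and Zfp423, and Adipoq was at 0 in the Lgr5+ and Sox9+ libraries. Endothelial markers (6) summed to 7.11, 9.96 and 4.22 FPKM with none at 0, and perivascular markers (5) to 83.5, 77.2 and 86.6 FPKM with Myh11 at 0 in Lgr5+ cells. The near-equal perivascular sums join opposite directions. Acta2 and Rgs5 were at least 2-fold higher in Lgr5+ than in Lgr5- cells and Pdgfrb at least 2-fold lower. The part of these cell types in the levels of the imprinted genes was not tested.

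Against the Sox9+ library, 0 of the 9 genes were higher in Lgr5+ cells by 2-fold or more and 4 lower. Of 12492 measured genes, 4.33% were higher by that much and 3.96% lower, 8.29% in all. The split of all genes, 541 higher and 495 lower, depended on the scaling, with 981 and 533 after rescaling every library to the same sum (TPM) and 722 and 397 when scaled to the sum without the 9 genes. Plagl1 was 2.75-fold, Peg3 2.31-fold, Mest 2.24-fold and Dlk1 2.19-fold lower in Lgr5+ cells, and between 1.59% and 3.09% of measured genes had a ratio below theirs. The Dlk1 call ended after rescaling to TPM (log2 ratio -0.99) and when scaled to the sum without the 9 genes (-0.98). Meg3 was 1.67-fold, Grb10 1.55-fold, Nnat 1.48-fold and Ndn 1.09-fold lower, and H19 1.31-fold higher, all within 2-fold. Ndn turned to slightly higher in those 2 scalings, at log2 ratios of 0.03 and 0.02. The median log2 ratio was -0.74 over the 9 genes and 0.06 over all measured genes.

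Against the Sox9+ library, 0 of the 9 genes were higher in Lgr5- cells by 2-fold or more and 5 lower. Of 12482 measured genes, 3.08% were higher by that much and 4.94% lower, 8.02% in all. Their split, 384 higher and 617 lower, was 706 and 644 after rescaling to TPM, 486 and 489 when scaled without Rn45s and haemoglobin genes, 488 and 496 without the 50 highest genes and 471 and 497 without the 9 genes. Dlk1 was 4.79-fold, Plagl1 4.24-fold, Peg3 2.97-fold, Mest 2.43-fold and Meg3 2.11-fold lower in Lgr5- cells. Ratios below that of Dlk1 were seen in 64 genes and below that of Plagl1 in 80 genes. Meg3, a long non-coding RNA of the Dlk1 cluster that is known to restrain growth, stood at 88.8 FPKM in Lgr5+ cells, 70.1 FPKM in Lgr5- cells and 149.4 FPKM in Sox9+ cells, and its call ended in 5 of 7 other scalings, with log2 ratios between -0.97 and -0.92. Grb10, an adaptor that dampens insulin and IGF receptor signalling, was at 276.2 FPKM in Lgr5+ cells, 238 FPKM in Lgr5- cells and 427.9 FPKM in Sox9+ cells, 1.79-fold lower in Lgr5- than in Sox9+ cells. Ndn, a MAGE family protein of post-mitotic neurons and other differentiating cells, was at 109.1, 89.3 and 119.2 FPKM in the same order, 1.33-fold lower in Lgr5- than in Sox9+ cells. H19 was 1.72-fold lower, and Nnat 1.02-fold lower with a sign that turned in 6 of 7 other scalings. The levels of Grb10, Ndn and Nnat thus lay within 2-fold in all 3 pairs. The median log2 ratio was -1.08 over the 9 genes and -0.01 over all measured genes.

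**Figure D2:**
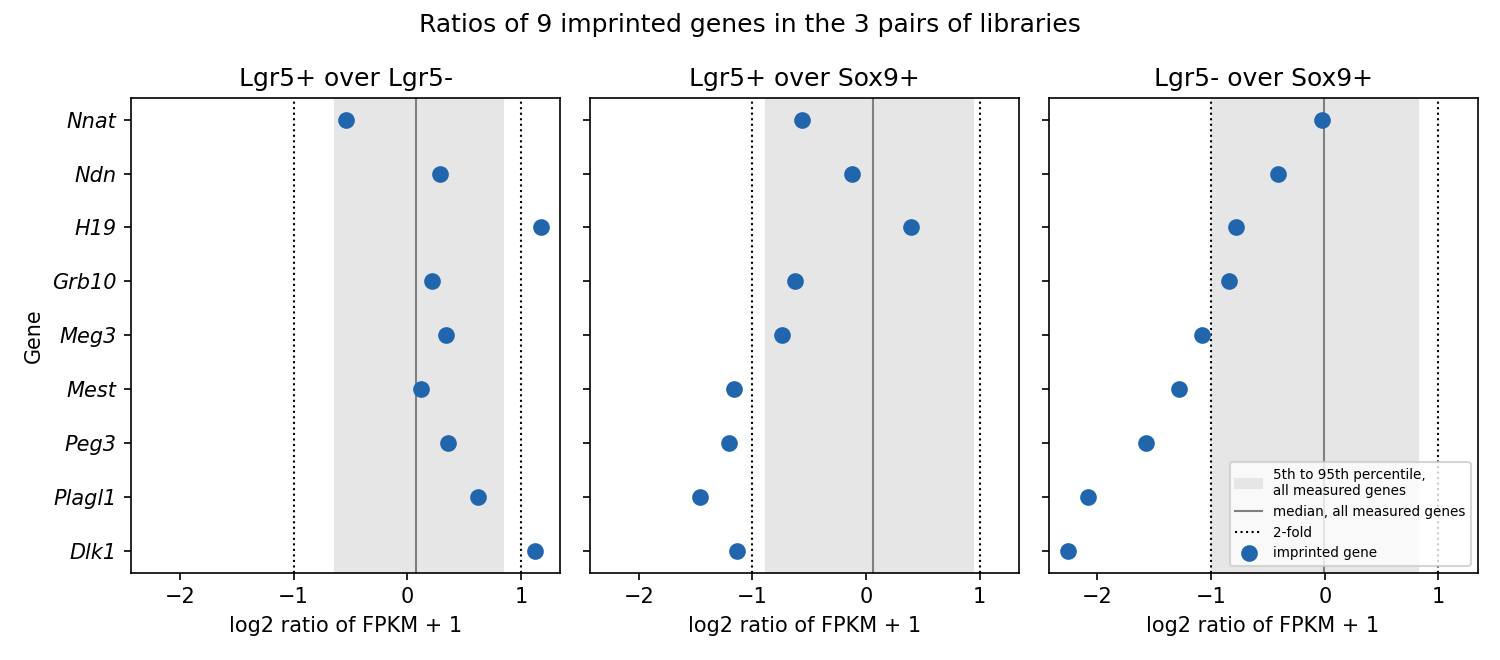
Log2 ratio of FPKM + 1 of each gene (dots) for Lgr5+ over Lgr5-, Lgr5+ over Sox9+ and Lgr5- over Sox9+, with the 2-fold lines (dotted), the median of all measured genes (grey line) and their 5th to 95th percentile (grey band). Dlk1, Plagl1, Peg3 and Mest lie left of the -1 line in both right panels, and H19 and Dlk1 right of the +1 line in the left panel.

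Limb genes and other measures also set the Sox9+ library apart. Hoxc10 stood at 0.37 FPKM in Lgr5+ cells, 0.21 FPKM in Lgr5- cells and 17 FPKM in Sox9+ cells. Pitx1, which like Hoxc10 is known from the hindlimb, was at 56.5, 83.2 and 161 FPKM, and Tbx5, known from the forelimb, at 20.9, 11.9 and 4.92 FPKM. These genes ran in the direction of more hindlimb RNA in the Sox9+ library. Mki67, a marker of dividing cells, was at 15.3, 17 and 30.6 FPKM, and the heat shock gene Hspa1a at 20.2, 16.1 and 1116 FPKM. The part of limb, division or stress in the higher levels of the imprinted genes was not tested.

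The position of each gene was read from GENCODE release M21 on GRCm38. H19 (chromosome 7, 142575529 to 142578143, minus strand) lies 72623 bases from Igf2, and Dlk1 (chromosome 12, 109452823 to 109463336, plus strand) lies 77665 bases from Meg3 (chromosome 12, 109541001 to 109571726, plus strand). Peg3 (6703892 to 6730431, minus strand) and Ndn (62346569 to 62350262, plus strand) are also on chromosome 7. Plagl1 is on chromosome 10 (13060504 to 13131694, plus strand), Grb10 on chromosome 11 (11930508 to 12038683, minus strand), Mest on chromosome 6 (30723547 to 30748465, plus strand) and Nnat on chromosome 2 (157560078 to 157562522, plus strand). H19 and Meg3 are annotated as long non-coding RNAs and the other 7 as protein-coding. The 3' end of Mest shares 912 exonic bases with Copg2 on the opposite strand, and a library that does not mark strand cannot tell such reads apart. Meg3 likewise shares 1228 exonic bases with the opposite-strand Gm26906, which has no value in the files, so its reads may count in Meg3 and in each ratio to Meg3 below. Copg2 stood at 5.37 FPKM in Lgr5+ cells, 8.33 FPKM in Lgr5- cells and 6.82 FPKM in Sox9+ cells, which is 47.1 to 139.98 times below Mest. Nnat lies within the span of Blcap on the opposite strand, with 0 shared exonic bases.

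Neighbours in a cluster were then set against each other within a library, where a scaling by 1 factor per library has no part. Igf2, the fetal growth factor that is expressed from the paternal copy, was at 553.9 FPKM in Lgr5+ cells, 314.8 FPKM in Lgr5- cells and 584.8 FPKM in Sox9+ cells. The H19 to Igf2 ratio was 2.3 in Lgr5+ cells, 1.79 in Lgr5- cells and 1.66 in Sox9+ cells, a spread of 1.39 times. Quantile normalization, which does not scale by 1 factor, gave 2.59, 1.74 and 1.63. The Dlk1 to Meg3 ratio varied more, at 0.44, 0.247 and 0.581, a spread of 2.35 times. Rian and Mirg are non-coding RNAs downstream of Meg3 on its strand and, like it, are maternally expressed. Rian stood at 5.88, 4.87 and 10.6 FPKM and Mirg at 3.5, 2.91 and 5.08 FPKM. The Meg3 to Rian ratio was 15.1, 14.4 and 14.1, a spread of 1.07 times, and the Meg3 to Mirg ratio 25.4, 24.1 and 29.4. The ratios among the 3 maternal RNAs of the cluster thus spread by 1.07 and 1.22 times, and that of paternal Dlk1 to Meg3 by 2.35 times. Ndn to its neighbour Magel2 spread more, at 31.2, 18 and 11.5, or 2.72 times. A wide spread was therefore not particular to Dlk1 and Meg3, and no rule by parental copy can be read from these ratios.

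**Figure D3:**
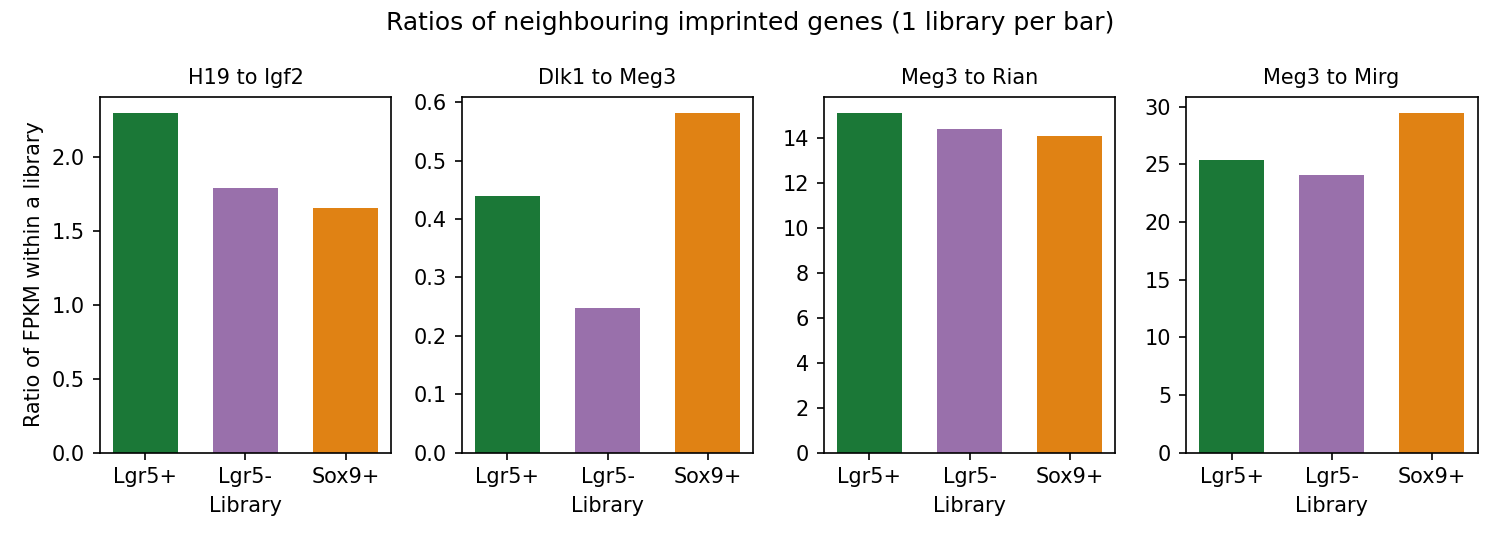
Ratio of FPKM of neighbouring imprinted genes in the Lgr5+, Lgr5- and Sox9+ libraries, 1 library per bar and no error, each panel from 0. The Meg3 to Rian ratio spans 14.1 to 15.1, and the Dlk1 to Meg3 ratio 0.247 to 0.581. Ratios that spread more are not drawn, Ndn to Magel2 by 2.72 times and Mest to Copg2 by 2.97 times.

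H19, Mest and Meg3 host microRNA genes, and the mature sequences are shown because the level of a host does not report them. They are RefSeq sequences (GRCm38.p6), 5′ to 3′, with the seed (bases 2 to 8) in capitals. miR-675 lies in H19 (chromosome 7), miR-335 in Mest (chromosome 6) and miR-770 in Meg3 (chromosome 12).
mmu-miR-675-5p: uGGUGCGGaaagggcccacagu
mmu-miR-675-3p: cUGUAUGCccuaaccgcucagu
mmu-miR-335-5p: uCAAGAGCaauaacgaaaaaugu
mmu-miR-335-3p: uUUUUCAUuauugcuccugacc
mmu-miR-770-5p: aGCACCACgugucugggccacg
mmu-miR-770-3p: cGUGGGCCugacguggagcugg
No seed was shared among these or among all 22 mature sequences of the 11 microRNA genes looked up in the H19, Mest and Dlk1 to Meg3 clusters. All 11 microRNA genes were listed at 0 in all 3 libraries, as were 620 of the 637 microRNA genes listed. A library that is not made for short RNAs does not capture mature microRNAs, so a 0 here says nothing of their level.

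Other imprinted genes and neighbours of the 9 genes, not all of them known to be imprinted, were read as 3 lists, of which 67 symbols were in the files. In the Lgr5+ against Lgr5- comparison, 3 of 49 measured were at least 2-fold higher and 0 lower, with a median log2 ratio of 0.10. In the Lgr5+ against Sox9+ comparison 3 of 51 were higher and 8 lower, with a median of -0.18, and in the Lgr5- against Sox9+ comparison 1 of 48 was higher and 7 lower, with a median of -0.33. By list, the medians for Lgr5+ over Lgr5- were 0.54 in 8 genes known to be co-regulated with the 9, 0.26 in 18 cluster neighbours and 0.01 in 24 others. For Lgr5+ over Sox9+ they were -0.12, -0.23 and -0.22, and Igf2 stands in both of the first 2 lists. Over all measured genes 3.64% were higher and 1.89% lower in the first of these comparisons, 4.33% and 3.96% in the second and 3.08% and 4.94% in the third, where all genes lean lower as well. Most of the listed genes lay within 2-fold.

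Asb4, which encodes an ankyrin repeat protein with a SOCS box, had the largest difference of the 8 lower genes, at 5.2 FPKM in Lgr5+ cells, 5.57 FPKM in Lgr5- cells and 45.6 FPKM in Sox9+ cells, 7.52-fold and 7.09-fold lower. Peg10, a retrotransposon-derived gene of the same cluster, was at 2.4, 3.71 and 14.9 FPKM, 4.67-fold and 3.37-fold lower. Sgce, the neighbour of Peg10, stood at 25.7, 28 and 21.3 FPKM, within 2-fold. Phlda2, which restrains placental growth, was at 31.6, 46 and 112.6 FPKM, 3.48-fold and 2.42-fold lower. The amino acid transporter gene Slc38a4 was at 13, 14.8 and 37.5 FPKM, 2.75-fold and 2.44-fold lower. All 4 were highest in Sox9+ cells. Zim1 (1.16, 1.13 and 6.44 FPKM), a zinc finger gene beside Peg3, Klf14 (1.46, 0.76 and 5.42 FPKM), beside Mest, and Nap1l5 (1, 0.92 and 3.82 FPKM) were low genes that were likewise highest in Sox9+ cells. Magel2, a MAGE gene beside Ndn, was at 3.5, 4.97 and 10.4 FPKM, 2.53-fold lower in Lgr5+ cells and 1.91-fold lower in Lgr5- cells, so that it differed more than Ndn did.

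Genes that ran against the Sox9+ library were fewer. Dcn, a small leucine-rich proteoglycan that is imprinted in mouse placenta, was at 115.3 FPKM in Lgr5+ cells, 36 FPKM in Lgr5- cells and 7.97 FPKM in Sox9+ cells. Gatm, the first enzyme of creatine synthesis, was at 4.68, 0.61 and 0.9 FPKM, and Ano1, a chloride channel, at 7.62, 2.32 and 2.91 FPKM. All 3 were at least 2-fold higher in Lgr5+ cells than in either other library. Cdkn1c, the CDK inhibitor that halts dividing chondrocytes, was at 1855, 1089 and 2083 FPKM, within 2-fold throughout, with the order of the 7 genes above. Igf2r, the receptor that clears IGF2, followed the same order at 36.5, 29.4 and 59 FPKM.

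Of 15 measured genes listed for imprint maintenance, not all of which act in maintenance, 0 were 2-fold different in any pair. Their log2 ratios lay between -0.81 and 0.50. With 5.53%, 8.29% and 8.02% of all measured genes at 2-fold in the 3 pairs, a count of 0 of 15 is near the background. Dnmt1, the maintenance DNA methyltransferase, stood at 38.6 FPKM in Lgr5+ cells, 40.1 FPKM in Lgr5- cells and 50 FPKM in Sox9+ cells. Trim28, the co-repressor at methylated imprints, was at 129.9, 197.5 and 159.6 FPKM, and Zfp57, which recruits it, at 6.81, 12.7 and 12.3 FPKM. For Lgr5+ over Lgr5- the log2 ratio of Zfp57, -0.81, lay below the 5th percentile of all measured genes, -0.63, and that of Trim28, -0.60, close to it.

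**Figure D4:**
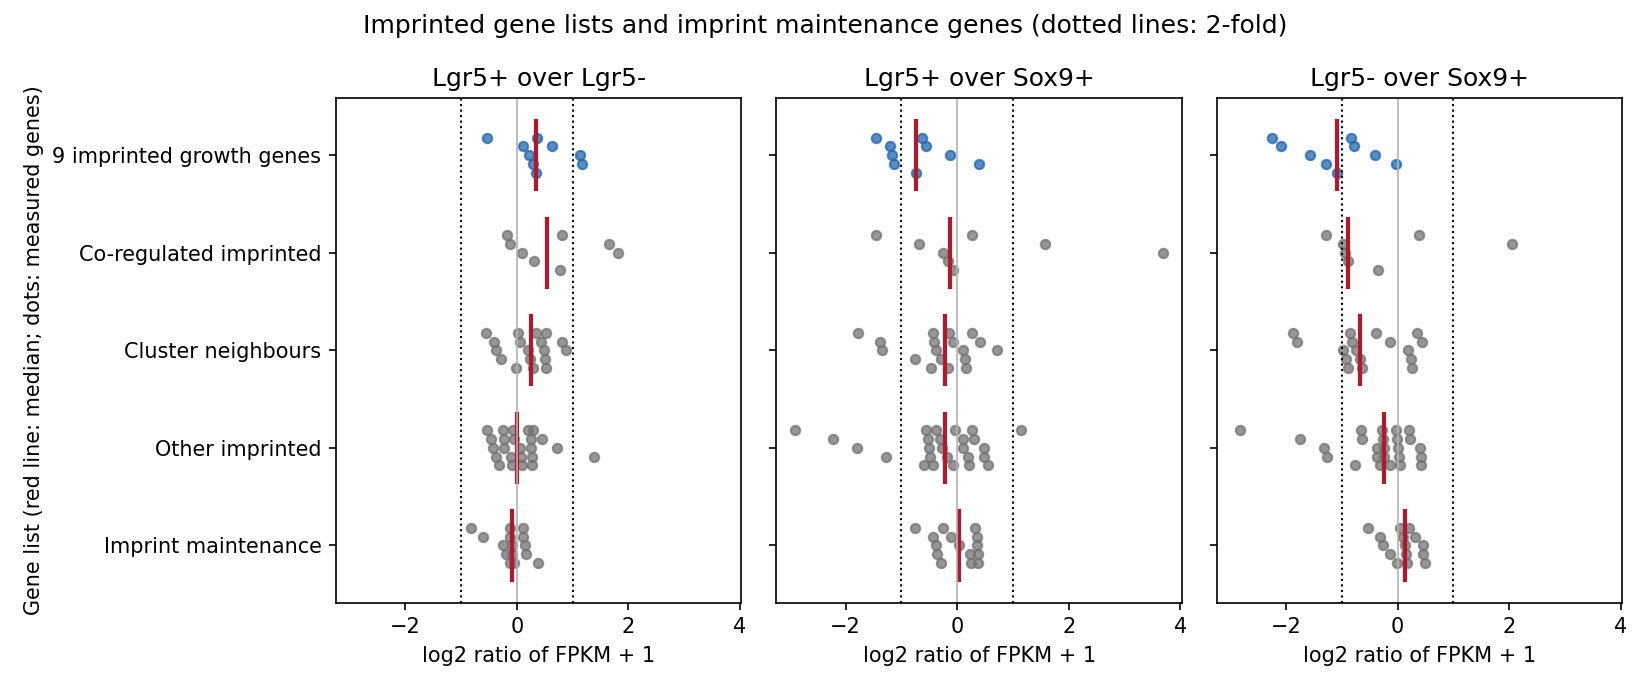
Log2 ratio of FPKM + 1 of each measured gene (dots) and the median (red line) in the 9 imprinted growth genes, 3 lists of other imprinted genes and their neighbours, and the imprint maintenance genes, for the 3 pairs of libraries. In the Lgr5- over Sox9+ panel the medians are -1.08 for the 9 genes and -0.89, -0.68 and -0.24 for the 3 other lists. The median is 0.14 for the maintenance list, not all of whose genes act in maintenance.

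The genes nearest in pattern to each gene with a 2-fold difference were found among 7013 genes of at least 10 FPKM in their highest library, by the largest of the 3 differences between their centred log2 values, 1 per library. A pattern over 3 values is only loosely defined, so these are descriptions. H19 was nearest to Sox9 (largest difference 0.01), Cpe (0.04) and Sfrp2 (0.05), and 85 genes lay within 0.25. Dlk1 had the fewest such genes, 11, led by Tubb6, Herpud1 and 1300014I06Rik. Plagl1 had 36, led by Col11a2, Mafk and Sytl2, and Peg3 had 89, led by Efcab1, Otud1 and Eno3. Mest had 149, led by Hoxa11, Asrgl1 and Amotl2, and Meg3 had 351, led by Cytl1, Klhl13 and Snhg5. Among the 9 genes themselves, Mest lay within 0.25 of Meg3 and of Peg3, and Meg3 also of Grb10, whereas H19, Dlk1 and Plagl1 had no other member as near.

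**Figure D5:**
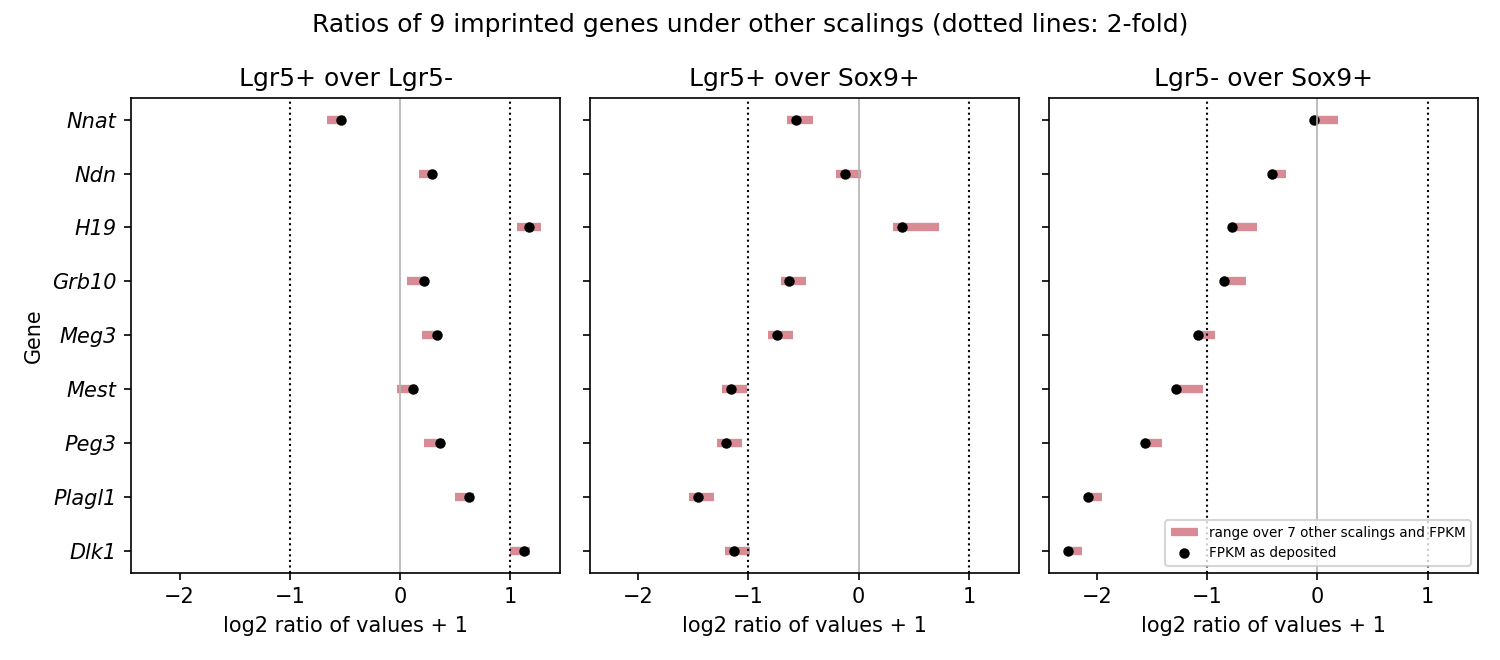
Log2 ratio of each gene for the 3 pairs as deposited (black dots) and its range over the deposited values and 7 other scalings (red bars), with dotted lines at 2-fold. Bars of Dlk1 cross the line in the left and middle panels and that of Meg3 in the right panel, and bars of Plagl1, Peg3 and Mest stay beyond it in the middle and right panels.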

How the data were processed

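The members and gene lists were chosen with earlier results of these data known. The authors deposited FPKM per gene symbol, 1 file per library, with 2 decimals. Per the labels' protocols and the design text, dissociated cells were sorted for GFP, and 10 ng of total RNA went into a SMARTer kit. The submitters' processing notes name HISAT2 and the build mm10 (GRCm38). Which tool and annotation gave the FPKM, and the depth, is not stated in those sources, so no counting interval was computed. Amplification from low input adds noise that cannot be estimated with 1 library per group.

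Log2 ratios of FPKM + 1 were computed for 3 pairs of libraries in Python 3.11.15 (pandas 2.3.3, numpy 2.4.6), tested on simulated data. A gene was measured at 1 FPKM or more in the higher library and different at 2-fold or more. No test was run. Named genes were the 9 members, every listed companion gene at least 2-fold different in any pair, and the 3 genes nearest in pattern to each member with such a difference. Igf2, Igf2r, Cdkn1c, Sgce, Rian, Mirg, Copg2, the maintenance genes Dnmt1, Trim28 and Zfp57, the limb and state genes Hoxc10, Pitx1, Tbx5, Mki67 and Hspa1a, and the markers Lgr5, Sox9, Pax7, Aif1, Snap25, Adipoq, Myh11, Pdgfra and Zfp423 were named outside that rule, after their values were seen. Symbols absent from the files were Zim2, Zfp264, Hymai, Cep41 and Adgre1. Some marker values are not reported here. There were 13 alternative settings of pseudocount, minimum, scaling and fold.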

Additional observations from a re-analysis of the deposited data

How the results depend on the processing

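With 1 library per group, no replicate could be left out, and depth and noise of low genes are unknown. No paired analysis was possible because each group has 1 library. Of 351 log2 ratios of the 9 genes under 13 alternatives, 319 kept their direction and side of the threshold. A further 18 fell under it, 5 passed it and 9 changed sign, each of those 9 being within 2-fold on both sides. The settings of the minimum could not change these ratios, and all 27 in each stayed the same, so the 319 overstates stability. The fold settings moved only the threshold, so no sign could change there. They gave all 5 that passed and 9 of the 18 that fell. The number of the 9 genes at least 2-fold higher in the Lgr5+ than in the Lgr5- library was 1 in place of 2 with a pseudocount of 5 FPKM and with quantile normalization, and 0 at a 3-fold threshold. At 3-fold, 0 in place of 4 were lower in the Lgr5+ than in the Sox9+ library and 2 in place of 5, Dlk1 and Plagl1, lower in the Lgr5- library. The 7 other scalings left 3 or 4 genes lower in the first and 4 or 5 in the second of these comparisons. Relative to the deposited values, the median of all genes shifted by 0.14 (Lgr5+ over Sox9+) and 0.11 (Lgr5- over Sox9+) in log2 after rescaling to TPM, by 0.14 and 0.11 without the 9 genes, by 0.11 and 0.12 (Lgr5- over Sox9+) without the 50 highest genes and without Rn45s and haemoglobin genes, and by -0.10 (Lgr5+ over Lgr5-) with upper quartile scaling. Counts of all genes depended on the settings, given here as higher and lower for Lgr5+ over Lgr5-, then Lgr5+ over Sox9+, then Lgr5- over Sox9+. As reported they were 453 and 235, 541 and 495, and 384 and 617. With a pseudocount of 0.1 FPKM they were 694 and 458, 900 and 785, and 721 and 958. With a pseudocount of 5 FPKM they were 202 and 81, 193 and 193, and 139 and 273. With a minimum of 10 FPKM they were 242 and 115, 273 and 257, and 180 and 369. At 1.5-fold they were 1178 and 741, 1574 and 1237, and 1186 and 1596, and at 3-fold 169 and 61, 173 and 155, and 118 and 196. Rescaling to TPM, which also weakens the pseudocount, gave 616 and 355, 981 and 533, and 706 and 644. The cause of each other shift was not tested.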
